A study of Rattus norvegicus with 12 samples.

Results

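In neonatal rat ventricular myocytes (NRVM), 152 of 15920 genes fell to at most 0.5 of their baseline level with phenylephrine (PE) and stood at least 2 times higher with PE + THZ1 than with PE. They were chosen by the deposited values themselves. The mean normalized count over the 12 libraries had to be at least 20, which 13350 genes reached, the ratio of the PE mean to the baseline mean at most 0.5, and the ratio of the PE + THZ1 mean to the PE mean at least 2. Of the 368 genes of sufficient level that PE lowered this far, these are 41.3%. They are called the restored genes below, and the other 216 the genes that were not restored.

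PE is an agonist of the α1-adrenergic receptor, which signals through Gq and drives hypertrophic growth of heart muscle cells. Such growth is known for the genes it switches on, among them fetal cardiac genes, but it also lowers transcripts, often those of the mature, resting myocyte. THZ1 binds covalently to CDK7, the kinase of the general transcription factor TFIIH, and to the related kinases CDK12 and CDK13, all of which phosphorylate the C-terminal domain of RNA polymerase II. Inhibitors of these kinases are known for lowering transcripts, above all short-lived ones.

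The libraries came from primary cultures of ventricular cells of Sprague Dawley rat pups of postnatal day 2 to 3. Non-muscle cells had been reduced by preplating and exposure to BrdU, and the cells had been kept without serum for 48 h. There were 4 groups of 3 libraries each, namely vehicle (baseline), PE at 100 µM, PE at 100 µM with THZ1 at 10 nM (PE + THZ1), and THZ1 at 10 nM (THZ1 alone). By the methods, cells received inhibitor or vehicle for 3 h before PE was added. The words restored and return therefore name a level above that with PE alone, not the reversal of an earlier fall. The labels give a treatment of 48 h for all, whereas the deposited column names of the PE and PE + THZ1 libraries say 24 h. No source used here says whether libraries of a group came from separate cell preparations, so p-values measure only the spread between these libraries. Between 30458862 and 45885754 reads per library were counted on genes. In bulk RNA, fewer cells of a type and less RNA per cell cannot be told apart. The deposited table names genes by Ensembl identifier, whereas the gene table at hand (47357 entries) holds no such identifiers, so no lookup could be made. What the restored genes encode is therefore not given here, nor could markers of cell types be read, and only 4 identifiers are printed.

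The restored genes covered a wide range of levels. The mean normalized count over 12 libraries ran from 20.1 to 16036 with a median of 123, against a median of 739 for all 13350 genes that reached the minimum. A mean of at least 1000 was found for 30 of them, and 68 lay under 100. The lowest gave as few as 3 reads in a PE library. Spread between replicates was above that of all genes of sufficient level, whose median level was higher. The median coefficient of variation was 10.5% at baseline and 11.8% with PE, against 7.52% and 4.79% for all genes of sufficient level. The part of level in this was not tested. The normalized counts of the 152 genes summed to 147200 ± 5928 (SD over 3 libraries) at baseline, 157350 ± 1508 with THZ1 alone, 49104 ± 1563 with PE and 125470 ± 4167 with PE + THZ1. This is 0.388%, 0.460%, 0.122% and 0.372% of all normalized counts in the respective groups. The gene with the highest level, ENSRNOG00000006151, supplied 18.6% of the sum at baseline and 8.45% with THZ1 alone.

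By the choice of genes, the fall with PE and the return with THZ1 are a description and not a test. The median ratio of PE to baseline was 0.368, with quartiles of 0.282 and 0.428 and a lowest value of 0.0997. A ratio under 0.25 was found for 27 genes. The median ratio of PE + THZ1 to PE was 2.49, with quartiles of 2.20 and 2.82. A ratio between 2 and 2.5 was found for 76 of the 152 genes, and 8 exceeded 4, with a highest value of 7.93. These 8 spanned mean levels from 20.1 to 3097. All 3 PE libraries lay below all 3 baseline libraries for 152 of 152 genes (24.6% of all 15902 genes tested did so), and all 3 PE + THZ1 libraries lay above all 3 PE libraries for 151 (32.2% of all genes tested). The remaining gene had a mean level of 23.9. In limma at an adjusted p under 0.05, PE lowered 23.0% of all genes tested, and PE + THZ1 exceeded PE for 28.0%.

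**Figure D1:**
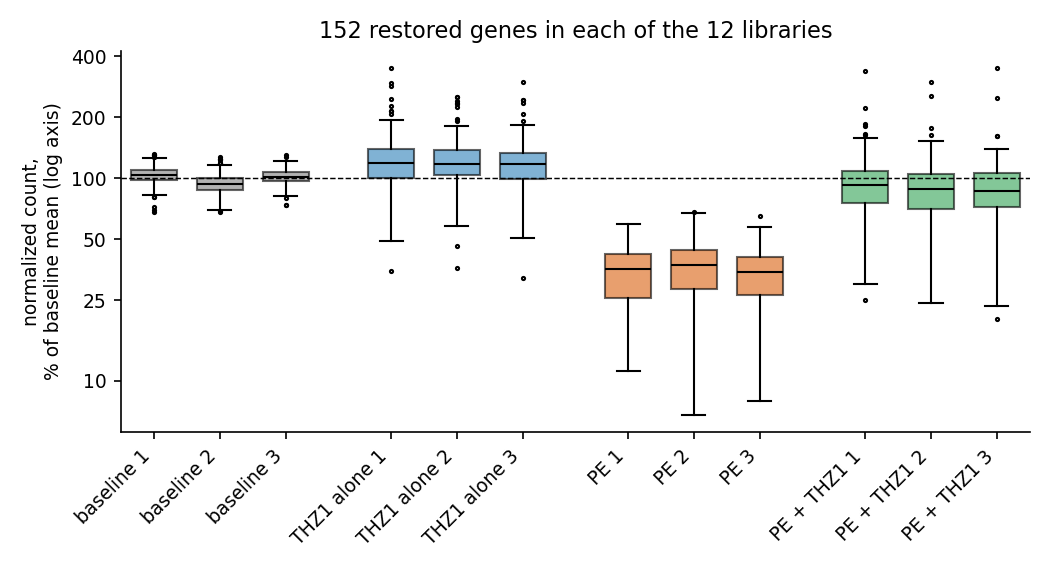
Normalized counts of the 152 restored genes in each library, in percent of the gene's baseline mean on a log axis. Boxes give the quartiles with the median as a line, whiskers reach 1.5 times the box length and points lie beyond. Medians were 93.5 to 104 in the baseline libraries, 117 to 119 with THZ1 alone, 34.6 to 37.2 with PE and 86.6 to 93.0 with PE + THZ1.

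The thresholds passed through a continuous range of values. At the limit of 0.5 for PE over baseline, the nearest genes inside had ratios of 0.499 and 0.498 and the nearest outside 0.5003 and 0.504. At the limit of 2 for PE + THZ1 over PE, the nearest inside had 2.0015 and 2.002, and the nearest outside 1.9965 and 1.996. At the mean level of 20, they were 20.1 and 20.8 inside, and 19.96 and 19.7 outside.

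**Figure D2:**
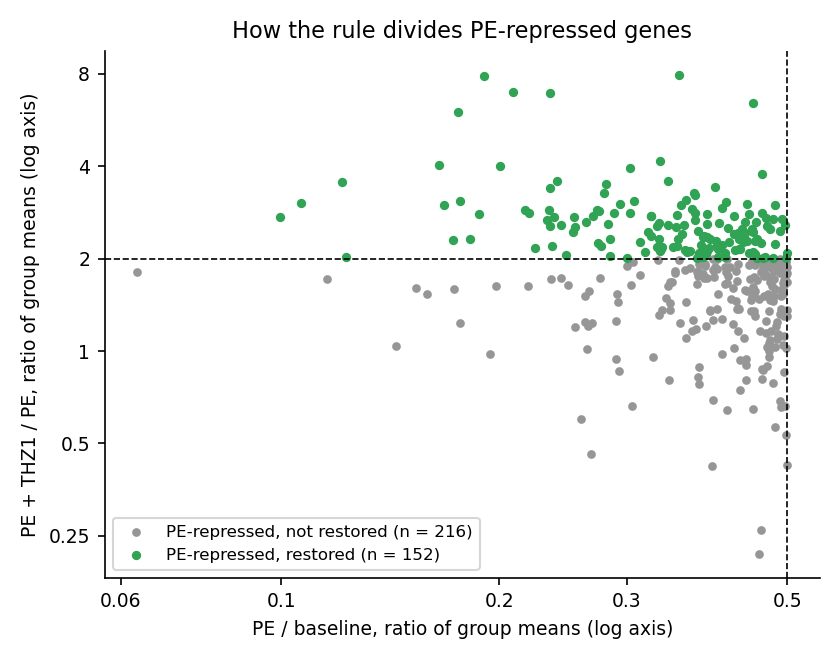
The ratio of PE to baseline means (horizontal, log axis) and of PE + THZ1 to PE means (vertical, log axis) for the 368 genes that PE lowered to at most 0.5 of baseline. Dashed lines mark 0.5 and 2. The 152 restored genes (green) and the 216 others (grey) form 1 cloud that the line at 2 divides.

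To read the same measures in libraries that had not chosen the genes, the rule was applied to the libraries of 2 replicate numbers and the ratios were taken from the third. Leaving out number 1, 2 or 3 in turn chose 154, 194 and 158 genes, of which 125, 143 and 136 were among the 152. In the held-out libraries PE lay below baseline for 152 of 154, 191 of 194 and 157 of 158 genes. PE + THZ1 lay above PE for 150, 193 and 158 of them. The median ratio of PE to baseline was 0.369, 0.430 and 0.352 in the held-out libraries, and that of PE + THZ1 to PE was 2.47, 2.25 and 2.49. Direction was therefore seen again in these libraries for nearly all genes, while both thresholds were met again by 70.8%, 52.1% and 70.3%. Whether the held-out libraries were separate cell preparations is not known. Shares for all genes are not given beside these, so this is a description of repeatability between libraries only. The low share belongs to number 2. Baseline replicate 2 was the lowest of its group for 93 of the 152 restored genes, and its median was 93.5% of the baseline mean, against 104% and 102% for numbers 1 and 3. PE replicate 2 was the highest of its group for 63 of them, and its median was 37.2%, against 35.7% and 34.6% for PE replicates 1 and 3. The part of either in the low share was not tested.

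Levels with THZ1 alone entered the rule only through the mean over all libraries, whereas the baseline libraries were shared with it. Here the restored genes lay mostly above baseline. THZ1 alone was higher than baseline for 62 genes (40.8%) and lower for 5 (3.29%) at an adjusted p under 0.05 (limma), against 23.4% higher and 23.7% lower among all genes tested (26.7% and 26.9% of the 13350 genes with a mean of at least 20). The median log2 change was 0.25, with a median standard error of 0.13, and that of all genes tested was -0.0005. The size factors hold the latter near 0, so higher and lower are relative to other transcripts here. A change shared by all transcripts could not be seen. With libraries scaled to equal totals, the medians were 0.39 for the restored genes and 0.15 for all genes tested. The ratio of THZ1 alone to baseline had quartiles of 0.998 and 1.36 around a median of 1.19. It was at least 2 for 6 genes and at most 0.5 for 2. All 3 libraries with THZ1 alone lay above all 3 baseline libraries for 76 restored genes and below them for 8, where 25.8% of all genes tested did the former and 25.8% the latter. In the held-out libraries the median ratio was 1.15, 1.28 and 1.14. Without baseline replicate 2, the calls were 54 higher and 11 lower, and edgeR on the recovered reads gave 67 and 11. Equal library totals gave 84 and 4, where 37.6% of all genes tested were higher and 14.2% lower.

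Whether a gene passed this threshold went with its level. Among the 38 restored genes of highest level, from 653 upward, 27 were higher and 3 lower with THZ1 alone, at a median standard error of 0.068. Among the 38 of lowest level, from 20.1 to 47.5, there were 5 higher, at a median standard error of 0.23. The median ratio was 1.19 in the former and 1.14 in the latter. The other 33 of these did not pass the threshold, and the part of depth in this was not tested.

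**Figure D3:**
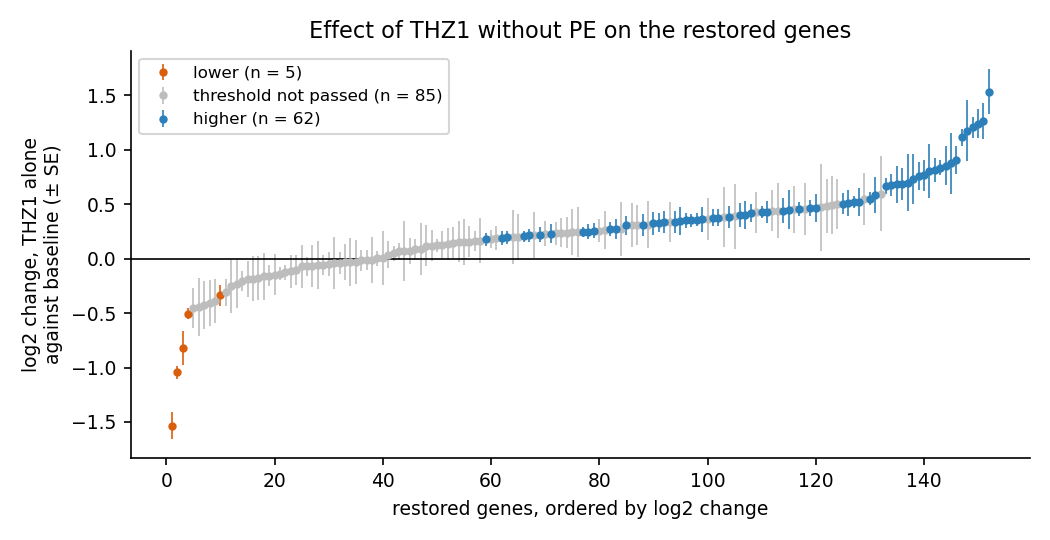
Log2 change of each restored gene with THZ1 alone against baseline, with its standard error from limma on log2(normalized count + 1), in order of size. The 62 genes called higher are blue, the 5 called lower orange and the 85 that did not pass the threshold grey.

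The largest rise with THZ1 alone was that of ENSRNOG00000013449. Its normalized counts were 19.4, 22.9 and 22.3 at baseline, 75.2, 54.1 and 64.4 with THZ1 alone, 9.33, 6.69 and 6.86 with PE, and 72.9, 54.8 and 53.8 with PE + THZ1. Every library with THZ1 thus lay above every baseline library, with or without PE. The log2 change was 1.53 with THZ1 alone (standard error 0.21, adjusted p = 8.3e-06 from limma). With PE + THZ1 the mean was 2.81 times baseline.

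Next came ENSRNOG00000000588. It had 85.0, 77.5 and 107 normalized counts at baseline, 220, 210 and 217 with THZ1 alone, 29.2, 49.1 and 46.1 with PE, and 163, 159 and 145 with PE + THZ1. The 4 groups did not overlap, and PE + THZ1 stood between baseline and THZ1 alone. The log2 change with THZ1 alone was 1.27 (standard error 0.17, adjusted p = 5.7e-06 from limma). The PE + THZ1 mean was 1.73 times baseline. PE + THZ1 against THZ1 alone gave -0.47 (standard error 0.17, adjusted p = 0.052 from limma), and 10 of the 23 alternative settings put this value past the threshold.

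In the opposite direction, ENSRNOG00000022635 had the largest fall. Its normalized counts were 527, 450 and 542 at baseline, 175.5, 182 and 164 with THZ1 alone, 63.0, 50.2 and 73.5 with PE, and 126, 134 and 119 with PE + THZ1. The groups did not overlap, with baseline highest and PE lowest. The log2 change with THZ1 alone was -1.53 (standard error 0.12, adjusted p = 1.5e-08 from limma). The PE + THZ1 mean was 0.249 of baseline and 2.03 times the PE mean. Against THZ1 alone the change was -0.46 (standard error 0.12, adjusted p = 0.013 from limma). This last call was lost without THZ1 replicate 2 or without PE + THZ1 replicate 3 (adjusted p = 0.056 in both, limma).

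The second largest fall belonged to ENSRNOG00000006151, the restored gene of highest level. It had 28067, 28263 and 25953 normalized counts at baseline, 13366, 12677 and 13862 with THZ1 alone, 6263, 5912 and 7003 with PE, and 16066, 16719 and 18284 with PE + THZ1. All PE + THZ1 libraries lay above all libraries with THZ1 alone. The log2 change was -1.04 with THZ1 alone (standard error 0.061, adjusted p = 2.0e-10 from limma). The PE + THZ1 mean was 0.621 of baseline. With PE in the presence of THZ1 the log2 change was 0.35 (standard error 0.061, adjusted p = 0.00036 from limma), the opposite sign to the fall with PE in its absence.

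**Figure D4:**
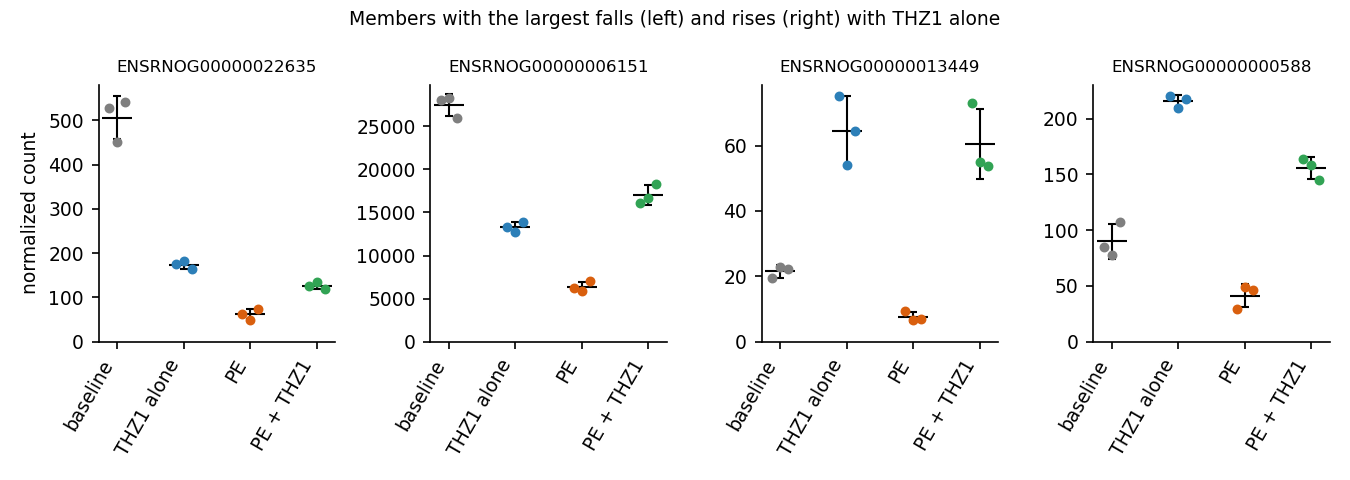
Normalized counts (linear axes from 0, each with its own scale) of the 2 restored genes with the largest falls and the 2 with the largest rises with THZ1 alone. Points are libraries, and bars give the mean ± SD of 3. PE is the lowest group in each panel, while THZ1 alone lies below baseline in the left pair and above it in the right pair.

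How near the restored genes stood to baseline was read from PE + THZ1 against baseline. This ratio is the product of both ratios in the rule, so it too is a description and not a test. The median level with PE + THZ1 was 90.0% of baseline, with quartiles of 75.9% and 105%, and 84 genes lay between 0.8 and 1.25 of baseline. For all genes with a mean of at least 20 the quartiles were 84.5% and 116%, both inside that band, around a median of 100%. Nearness to baseline is thus no trait of the restored genes. By limma at an adjusted p under 0.05, 49 of the 152 genes (32.2%) lay below baseline, 17 (11.2%) above it and 86 passed in neither direction. Among all genes tested, 24.9% were lower and 24.3% higher, and among those with a mean of at least 20, 28.2% and 27.5%. The share below baseline was near that of other genes, and the share above it was smaller. Both groups are in the rule, which shapes this split, so the calls are not read as a trait of the restored genes. Median standard errors were 0.13 for the restored genes and 0.071 for genes with a mean of at least 20, so the shares are not strictly alike. The median log2 change was -0.15. With libraries scaled to equal totals the split was 33 lower and 29 higher, where 13.9% of all genes tested were lower and 40.2% higher, and the median level of the genes then chosen was 99.0%.

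Expressed as a share of the fall with PE, 50 genes returned to above the baseline mean, 84 returned between 0.5 and 1 of the fall, and 18 returned less. Those 18 included 3 that returned under 0.25, with PE over baseline of 0.0997 to 0.123. For the 49 genes below baseline, the median level was 27.3% of baseline with PE and 66.0% with PE + THZ1. For the 17 genes above baseline, it was 44.3% with PE and 130% with PE + THZ1. Of the 17 genes, 15 were also higher with THZ1 alone than at baseline, and of the 49 genes, 13 were higher and 5 lower. These comparisons share the baseline libraries. The shares of all genes with these joint outcomes were not computed, so the counts are not read as a trait of the restored genes. The 5 genes lowered by THZ1 alone were all among the 49, and their median level with PE + THZ1 was 52.5% of baseline.

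The effect of PE in the presence of THZ1 was read from PE + THZ1 against THZ1 alone, where the PE + THZ1 libraries are shared with the rule. Of the restored genes, 82 (53.9%) were lower with PE + THZ1 than with THZ1 alone, and 1, ENSRNOG00000006151, was higher (limma, adjusted p under 0.05). Among all genes tested, 10.2% were lower and 11.2% higher (11.97% and 12.95% of those with a mean of at least 20). The median ratio was 0.737, with quartiles of 0.626 and 0.908, against the median of 0.368 for PE over baseline. It was at most 0.5 for 9 genes. PE thus still lowered many of these transcripts in the presence of THZ1. Of the 82 genes, 42 were below both baseline and THZ1 alone, while 44 of the 152 passed no threshold in any of the 3 comparisons, at a median level of 47.2. The shares of all genes tested with these joint outcomes were not computed, so neither count is read as a trait of the restored genes. Standard errors were larger at low levels, and all 3 comparisons share libraries with the rule.

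The 216 genes that PE lowered without a return of at least 2 times serve as the nearest comparison. They had a similar median level of 120 and a somewhat smaller fall, with a median PE to baseline ratio of 0.437 against 0.368. In the presence of THZ1 the effect of PE had a like size in both sets, with a median ratio of PE + THZ1 to THZ1 alone of 0.733 and of 0.737, and 123 of the 216 (56.9%) were lower. Apart stood the level with THZ1 alone. Its median ratio to baseline was 0.811 for the genes that were not restored and 1.19 for the restored ones. Among the former, 13 (6.02%) were higher and 94 (43.5%) lower with THZ1 alone than at baseline (limma, adjusted p under 0.05), against 62 and 5 of the 152. THZ1 alone was the highest of the 4 groups for 105 of the restored genes (69.1%) and for 52 of the others (24.1%), which had their highest level mostly at baseline (164 genes, 75.9%). The rule bars PE from being highest in either set, and it keeps PE + THZ1 below baseline in the genes not restored. The share among all genes was not computed, so these counts are not read as a trait of either set. The difference between the sets was not tested, since they were divided by their own values in these libraries. The ratio of PE + THZ1 to PE is also tied to the others, being the product of THZ1 alone over baseline and PE + THZ1 over THZ1 alone, divided by PE over baseline.

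**Figure D5:**
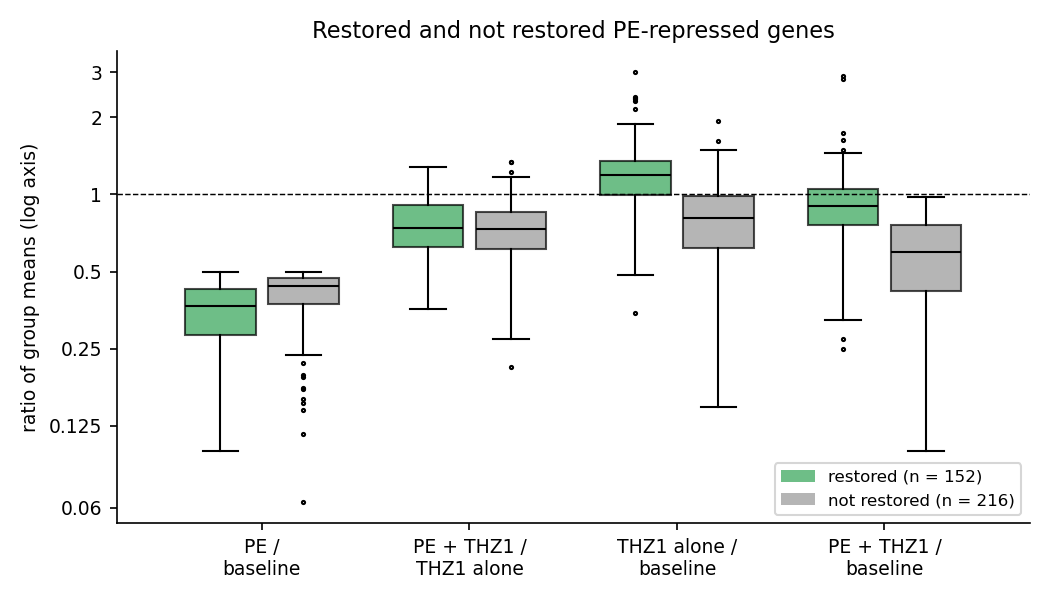
Ratios of group means (log axis) for the 152 restored genes (green) and the 216 genes not restored (grey). Boxes give quartiles and median, whiskers reach 1.5 times the box length and points lie beyond. The boxes for PE + THZ1 over THZ1 alone nearly coincide (medians 0.737 and 0.733), and those for THZ1 alone over baseline lie on either side of 1 (medians 1.19 and 0.811).

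A column without a name in the deposited table holds 1 of 6 whole numbers for each gene. It is read here as the authors' cluster of the gene, from the hierarchical clustering in the methods, which no header states, and its numbers were not matched to any other numbering. The paper describes its cluster 5 as PE-induced and its cluster 2 as genes whose fall with PE was weaker under THZ1. Here number 2 holds none of the restored genes and number 5 holds 44, so these numbers are not taken as the paper's. The restored genes fell under 3 of the numbers. Of the 152, 104 lay in cluster 1 (5024 genes in all), 44 in cluster 5 (2263 genes) and 4 in cluster 3 (2355 genes). In cluster 1 the median level of restored genes was 126% of baseline with THZ1 alone and 93.8% with PE + THZ1. In cluster 5 these were 98.5% and 71.3%. The 4 genes of cluster 3 had a median of 14.4% of baseline with PE and 42.6% with PE + THZ1. Restored genes higher with THZ1 alone numbered 59 of the 104 in cluster 1 and 3 of the 44 in cluster 5, against 23.4% of all genes tested. The shares among all genes of each cluster were not computed, so these counts do not set the restored genes apart from their clusters. If the clusters come from the same values as the rule, as read here, the split describes how the restored genes differ among themselves and adds no test.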

How the data were processed

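The deposited values are a signal, namely gene read counts that the authors divided by a DESeq2 size factor per library. By the methods, single-end reads were aligned to rn5 with TopHat (version 2.1.1 in the submitters' processing notes), counted with htseq-count using strand, and all rat samples were normalized in 1 run. Dividing by the lowest step of each library recovered reads, and 100% of values lay within 0.01 of a whole number. No value is 0, since the fewest reads of a gene in a library are 1.

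Changes were tested in R 4.3.3 by limma 3.58.1, with values as log2(normalized count + 1), which understates changes of low genes, in a common fit of all 12 libraries with a trended prior variance, for 15902 genes with a mean of at least 2. Tests were two-sided with Benjamini-Hochberg adjustment over all genes and a threshold of 0.05. The fit was tested on simulated reads drawn independently for each library, so this cannot speak for effects shared between libraries. Alternatives were edgeR 4.0.16 and DESeq2 1.42.0 on recovered reads, other pseudocounts, minimums and scalings, a replicate block and each library left out. Depth was 30458862 to 45885754 reads.

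The genes and lists were chosen with earlier results of these data known. Planned gene lists, cell type markers and promoters could not be read without symbols, and the naming rule was reduced to the 2 largest rises and 2 largest falls with THZ1 alone among restored genes past the threshold. Figures were drawn with matplotlib 3.10.9.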

Additional observations from a re-analysis of the deposited data

Results flagged for a closer look

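THZ1 alone lowered 5 restored genes (3.29%, against 23.7% of all genes tested) that lay higher with PE + THZ1 than with PE. The count was 11 without baseline replicate 2 and 11 with edgeR. For the 5 genes, all 3 libraries with THZ1 alone lay below all 3 baseline libraries, past the threshold in limma, while all 3 PE + THZ1 libraries lay above all 3 PE libraries. The second direction was fixed by the choice of genes, and the difference between both effects was not tested. For ENSRNOG00000022635 the log2 change was -1.53 with THZ1 alone against baseline and 1.02 with PE + THZ1 against PE. For ENSRNOG00000006151 it was -1.04 and 1.41.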

How the results depend on the processing

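Of 684 values recomputed under alternatives, 657 kept their direction and their side of the threshold or stayed within the limits set for no change. For counts this limit was a ratio to the main count, and a wide one. It let pass 33 in place of 49 restored genes below baseline with PE + THZ1 (equal library totals). It also let pass 49 in place of 62 restored genes higher with THZ1 alone (a library left out). Scaling to equal library totals moved most. It shifted the median log2 change of all genes by up to 0.27 (PE + THZ1 against PE). All genes higher then numbered 2821 (PE against baseline), 7875 (PE + THZ1 against PE, 2300 lower), 5978 (THZ1 alone against baseline, 2265 lower) and 6389 (PE + THZ1 against baseline, 2210 lower). The rule chose 273 genes, all 152 among them, with a median level of 99.0% of baseline with PE + THZ1, and 29 of the 152 were above baseline. With the median in place of the mean of a group the rule chose 171 genes, and with minimum means of 10 and 50 it chose 198 and 113. Leaving out libraries gave 146 to 194 genes and a median level of 83.5% to 97.7%, the values of 194, 83.5% and 97.7% with a whole replicate number held out. Restored genes lower with THZ1 alone numbered 5 to 11 with a library left out (11 without baseline replicate 2) and 11 with edgeR. ENSRNOG00000013449 ranged from -0.2328 to 0.0212 (log2 change) for PE + THZ1 against THZ1 alone with a library left out, and changed sign without THZ1 replicate 1. It passed the threshold in none of these. The causes were not tested. With the replicate block, the restored genes higher and lower were 63 and 5 with THZ1 alone, 18 and 54 for PE + THZ1 against baseline, and 1 and 87 against THZ1 alone, and every gene called without the block was called with it. The labels do not say that a number marks a shared preparation. Same-numbered libraries deviated from their group means with an average correlation (Pearson, across genes) of 0.0287 in 18 pairs, and no pair passed the limit of 0.1 set for taking numbers as pairs (highest 0.0970). That 10 of 12 libraries were closest to their own number is a hint, from the data, of a small shared effect. Alternatives planned for gene lists were not run, as no list could be read. Standard errors were larger for restored genes of low level (median 0.23 in the lowest band of 38, 0.068 in the highest), and the part of depth in the number of calls was not tested.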
